A study of Mus musculus with 25 samples.

Results

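The 9 Pax genes of the mouse, Pax1 to Pax9, were examined for 4 histone marks during the culture of fibroblasts in a medium meant to turn them into neural stem cells. They were taken by name from a table of 24221 genes, and each of the 9 had 1 row. The marks were profiled by chromatin immunoprecipitation and sequencing (ChIP-seq) in fibroblasts called tdMEFs, kept in serum medium at 20% oxygen (D0), and in tdMEFs treated for 4 days (D4) or 8 days (D8) with M9, at 5% oxygen. The M9 medium lists no serum and combines retinoic acid, bFGF, the Wnt activator CHIR99021, the hedgehog agonist Hh-Ag1.5, 2 receptor inhibitors (LDN193189 for BMP, A83-01 for TGF-beta), SMER28, RG108 and Parnate. Each mark had 1 library at each stage, so no value has a replicate, no p-value is given, and every difference is one between single libraries. The treatment, the medium and the oxygen level changed together and cannot be told apart. The sex-chromosome signal, given below, differed between D0 and the later stages too. What tdMEF stands for, and whether cells of several embryos were pooled, is not given in the labels.

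Pax genes encode transcription factors that bind DNA through a paired domain and set the identity of tissues in the embryo. Pax6 is expressed in neural progenitors and the eye, and Pax3 and Pax7 in the dorsal neural tube, the neural crest and muscle progenitors. Pax2, Pax5 and Pax8 act at the border of midbrain and hindbrain, and in the kidney, B cells and the thyroid in turn. Pax1 and Pax9 act in the sclerotome and the pharyngeal pouches, and Pax4 in the endocrine pancreas. H3K27me3 is deposited by Polycomb complexes and marks genes held silent. H3K4me3 lies at promoters that are active or poised, H3K27ac at active promoters and enhancers, and H3K4me1 broadly at enhancers and around promoters. Promoters of developmental regulators that carry H3K4me3 and H3K27me3 at once are called bivalent.

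The promoters of 7 members could be read from RefSeq, in the build GRCm38.p6, and 5 are shown because their H3K4me3 took different courses. Each line gives the 250 bases before a transcription start, 5′ to 3′ on the gene's strand, and the capitals mark CpG dinucleotides, the sites around which promoters of developmental genes are often dense.
Pax9, chr12:56695221-56695470, plus strand: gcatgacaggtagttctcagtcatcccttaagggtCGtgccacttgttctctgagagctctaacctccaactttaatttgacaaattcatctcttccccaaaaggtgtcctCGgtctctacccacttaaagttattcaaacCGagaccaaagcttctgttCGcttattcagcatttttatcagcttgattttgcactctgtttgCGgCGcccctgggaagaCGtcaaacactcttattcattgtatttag
Pax2, chr19:44756656-44756905, plus strand: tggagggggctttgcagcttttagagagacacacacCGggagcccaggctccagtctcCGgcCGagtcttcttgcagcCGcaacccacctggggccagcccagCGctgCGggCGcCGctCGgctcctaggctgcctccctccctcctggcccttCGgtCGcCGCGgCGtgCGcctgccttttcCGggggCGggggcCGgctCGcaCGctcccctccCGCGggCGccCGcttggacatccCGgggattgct
Pax6, chr2:105668646-105668895, plus strand: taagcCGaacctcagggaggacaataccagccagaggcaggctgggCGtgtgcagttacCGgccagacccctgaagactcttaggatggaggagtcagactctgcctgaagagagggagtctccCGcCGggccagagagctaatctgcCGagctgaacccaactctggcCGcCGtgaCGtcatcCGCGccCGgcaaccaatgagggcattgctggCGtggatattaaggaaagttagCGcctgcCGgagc
Pax7, chr4:139832969-139833218, minus strand: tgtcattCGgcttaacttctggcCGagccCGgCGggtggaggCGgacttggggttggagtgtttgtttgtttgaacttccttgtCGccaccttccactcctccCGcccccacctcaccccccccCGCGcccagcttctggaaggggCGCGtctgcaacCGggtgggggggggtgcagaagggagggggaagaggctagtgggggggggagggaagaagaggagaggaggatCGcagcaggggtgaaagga
Pax5, chr4:44710695-44710944, minus strand: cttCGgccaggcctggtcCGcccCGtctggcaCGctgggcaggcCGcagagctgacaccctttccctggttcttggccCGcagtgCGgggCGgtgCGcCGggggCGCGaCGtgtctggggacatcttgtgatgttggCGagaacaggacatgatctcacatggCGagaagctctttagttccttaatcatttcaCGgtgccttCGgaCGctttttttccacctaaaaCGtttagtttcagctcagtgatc
The Pax9 window holds 7 CpG and is 43.6% G+C, the Pax2 window 25 CpG at 72.8%, the Pax6 window 15 at 60.8%, the Pax7 window 13 at 65.2% and the Pax5 window 19 at 58.8%. Over 20783 such windows of genes in the table the median was 10 CpG and 56% G+C. Observed over expected CpG was 0.617 for Pax9, 0.761 for this Pax2 start, 0.652 for Pax6, 0.516 for Pax7 and 0.880 for Pax5, against a median of 0.539. Pax2 has 2 further starts in the table, with 5 and 20 CpG, Pax6 has 1 further, with 15, and the windows of Pax1 and Pax8 hold 10 and 6. Pax3 (chr1:78101267-78197136) and Pax4 (chr6:28442334-28449340) have no entry. Pax5, with the lowest H3K4me3 of the family at D8, thus has more CpG in this window than Pax9, with the highest. The Pax9 start used here, 56695471, lies inside the annotated gene, which begins at 56691693. The printed Pax2 and Pax7 starts lie inside their genes as well. No relation of CpG to H3K4me3 is drawn from these windows. None of the 10 Pax windows holds the letters GACCACCCA (a GLI motif, in 0.197% of all windows), ATCAAAG (TCF/LEF, 2.91%), AGGTCA (a half-site of retinoic acid receptors, 12.7%) or TATAAA (the TATA box, 11.2%) on either strand. CCAAT was found in 3 of them, at Pax1, Pax6 and Pax8, and in 34.95% of all windows.

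The 12 libraries held between 1582817 reads (H3K27ac at D0) and 34856379 reads (H3K4me3 at D8), as inferred from the values. Values are RPM, reads-per-million of the library, for a region at each gene. The median H3K27me3 at D4 was 1.90 RPM in the longest 25% of genes and 1.74 RPM in the shortest 25%, although their median gene length differed 75.3-fold, so levels of different genes were compared as they stand. H3K4me3 shifted as a whole: the median gene had 3.48 RPM at D0, 5.41 RPM at D4 and 11.1 RPM at D8. Changes are therefore given as log2 ratios after quantile normalization, which compares a gene's rank between libraries, or as the percentile of a gene among all genes of its library. A gene was compared between 2 stages where its larger value reached the median of the mark over the stages, and called where it then differed at least 2-fold. Of 14 fibroblast markers examined, 14, 13 and 13 reached the median of H3K4me3 at D0, D4 and D8. Of 7 neural stem cell markers 3, 2 and 3 did, while none of 5 skeletal muscle, 5 kidney and thyroid, 4 blood and 4 epithelial markers did at any stage. Of the B cell, neural crest and endothelial markers, 1 of 5, 2 of 5 and 1 of 4 did at every stage. The mean of 5 Y-linked genes over the autosomal mean in the order of the stages came to 1.29, 0.484 and 0.347 for H3K4me3. For H3K27me3 it came to 0.677, 0.130 and 0.193. The X-linked gene Xist had 1.03, 41.1 and 47.9 RPM of H3K4me3. The D0 chromatin thus differs from the later chromatin in sex-chromosome signal as well, which cannot be told apart from the stage. The part of this difference in the results below was not tested.

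All 9 Pax genes carried H3K27me3 far above the median gene, at every stage. Their median level was 6.85 RPM at D0, 6.89 RPM at D4 and 7.15 RPM at D8, against 1.76, 1.74 and 1.83 RPM for the median of all genes. Each of the 9 reached the 75th percentile of H3K27me3 at all 3 stages, as did 25%, 26.2% and 25.5% of all genes at D0, D4 and D8. The 95th percentile was reached by 6, 9 and 9 members, against 5.55%, 5.07% and 5.17% of all genes. In bulk chromatin, a mark on more cells and more of the mark in each cell cannot be told apart.

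**Figure D1:**
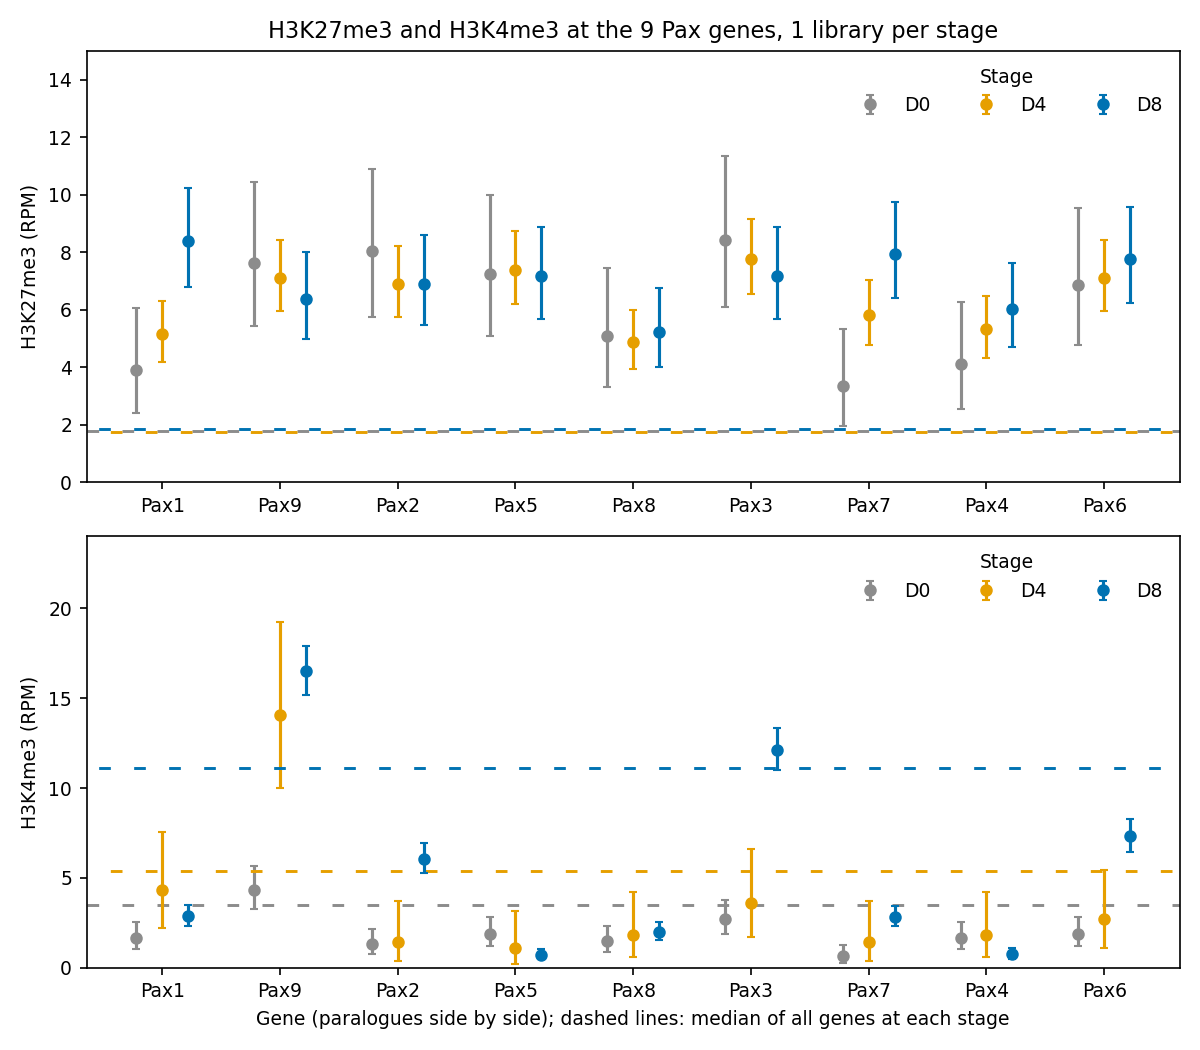
H3K27me3 (upper) and H3K4me3 (lower) at each Pax gene, in RPM, at D0 (grey), D4 (orange) and D8 (blue), 1 library each. Bars are 95% Poisson intervals of the reads, which cover counting error only, and dashed lines are the median of all genes. The H3K27me3 points lie between 3.33 and 8.41 RPM, above the dashed lines of 1.74 to 1.83 RPM, whereas in H3K4me3 Pax9 and Pax3 reach 16.5 and 12.1 RPM at D8 and Pax4 and Pax5 stay under 2 RPM.

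The highest H3K27me3 at D0 was at Pax3, with 8.41 RPM (95% Poisson interval 6.09 to 11.3), followed by 7.75 at D4 and 7.15 RPM at D8. Pax2 had 8.02, 6.89 and 6.89 RPM, Pax9 7.63, 7.10 and 6.37 RPM, and Pax5 7.24, 7.38 and 7.15 RPM. Pax6 had 6.85 RPM at D0 (4.77 to 9.52), 7.10 RPM at D4 and 7.76 RPM at D8. For these 5 genes the intervals of the 3 stages overlapped, and each stayed between the 98.0th and the 99.7th percentile. Pax8 was the member with the least H3K27me3 at D4 and D8, with 5.09, 4.88 and 5.23 RPM, and still stood at the 96.0th, 97.1st and 96.2nd percentile. No adjacent pair of members, ranked by level, had intervals apart at any stage, at a depth of 17 to 143 reads per gene. Some members further apart in the order did separate. For example, Pax7 lay below Pax2, Pax3 and Pax9 at D0. Pax8 (3.92 to 5.999) lay below Pax5 (6.19 to 8.72) and Pax3 (6.54 to 9.14) at D4, and Pax8 (3.99 to 6.74) below Pax1 (6.78 to 10.2) at D8.

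H3K27me3 was higher at D8 than at D0 at Pax7 and Pax1, the members with the least of it at D0. Pax7 had 3.33 RPM at D0 (1.94 to 5.33), 5.80 RPM at D4 (4.76 to 7.01) and 7.94 RPM at D8 (6.39 to 9.74). Its log2 change at D8 over D0 was 1.02, and it stood at the 99.3rd percentile at D8, against the 85.7th at D0. Pax1 had 3.91 RPM at D0 (2.39 to 6.04), 5.15 RPM at D4 (4.17 to 6.30) and 8.37 RPM at D8 (6.78 to 10.2), a log2 change of 0.90. The intervals of D8 and D0 did not overlap for these 2 genes, which 3.25% of all genes showed in this direction. By the 2-fold rule Pax7 was the one member counted as higher, and 0 were lower, where 1.82% of 17069 compared genes were higher and 1.76% lower. It lay at the edge of the rule, since the deposited values gave 1.00, just under it. The D0 library has 5111041 reads, and the values of Pax7 and Pax1 there rest on 17 and 20 reads. Pax4 had 4.11, 5.31 and 6.02 RPM, with overlapping intervals. At D4 over D0 and at D8 over D4, 0 of the 9 members reached 2-fold. Of all genes compared, 1.35% were higher and 1.1% lower at D4 over D0, and 0.135% and 0.0834% at D8 over D4. The D8 interval of Pax1 also lay above its D4 interval, as in 2.13% of all genes.

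H3K4me3 differed more between the members, as it did between genes in general. At D8 the family spread between 0.717 RPM at Pax5 and 16.5 RPM at Pax9, and 7 of 9 members were below the median gene. At D0 it lay between 0.634 RPM at Pax7 and 4.36 RPM at Pax9, with 8 of 9 below the median gene. The highest member exceeded the lowest 6.88-fold at D0, 13-fold at D4 and 23.0-fold at D8, while for H3K27me3 the same ratio was 2.53, 1.59 and 1.6. Ranked at D8, the order was Pax5, Pax4, Pax8, Pax7, Pax1, Pax2, Pax6, Pax3 and Pax9. Intervals overlapped between Pax5 and Pax4, Pax8 and Pax7, Pax7 and Pax1, and Pax2 and Pax6, and were apart at the other 4 steps.

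Pax9 carried the most H3K4me3 at every stage. It had 4.36 RPM at D0 (3.28 to 5.67), 14.1 RPM at D4 (9.9998 to 19.2) and 16.5 RPM at D8 (15.2 to 17.9). At D4 it was 3.23-fold above D0 and stood at the 64.8th percentile, with the intervals apart, a difference that 27.1% of all genes showed in this direction. Among members Pax9 alone passed the filter of 5.41 RPM at D4 over D0, and only through its D4 value. It was called as deposited, with 13.6% of genes, and not after normalization, where 3.76% of genes were higher and 1.21% lower. Its percentile at D8, 53.9, was close to that at D0, 53.0, so the higher RPM at D8 went with the general shift of the mark. Its log2 change was 0.86 at D4 over D0, 0.10 at D8 over D0 and -0.76 at D8 over D4, where the deposited values gave 0.21. Its window, printed above, is the one with the lowest G+C content among the Pax windows.

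Pax3, the dorsal neural tube factor, was next. It had 2.69 RPM at D0 (1.86 to 3.76), 3.61 RPM at D4 (1.73 to 6.63) and 12.1 RPM at D8 (10.98 to 13.3), 4.50-fold above D0 as deposited. Its log2 change was 0.70, and its percentile was 44.9, 45.3 and 50.8. Pax6, the neural progenitor and eye factor, had 1.90 RPM at D0 (1.22 to 2.83), 2.70 RPM at D4 (1.13 to 5.44) and 7.31 RPM at D8 (6.44 to 8.26), a log2 change of 0.99 just under the 2-fold rule. The Pax6 values include fractions of a read (7.5 reads at D4), and its intervals treat them as reads. Pax2 had 1.35 RPM at D0 (0.784 to 2.16), 1.44 RPM at D4 (0.393 to 3.69) and 6.08 RPM at D8 (5.29 to 6.96). With a log2 change of 1.11, Pax2 was the one member counted as at least 2-fold higher at D8 over D0, among 4 members that passed the filter on low values. No member reached that filter of 5.41 RPM at D0, where the highest had 4.36 RPM. The 4 thus passed through their D8 values, and a member with fewer RPM at D8 than at D0 could not be counted. The call was lost with the pseudocount multiplied by 4 (0.52) and the direction turned with the median change of the deposited values subtracted (-0.077). On that last scale the direction of Pax6 turned as well (-0.12), and that of Pax3 did not (0.20). Of 13401 compared genes, 5.88% were higher and 1.67% lower by the same rule. As deposited, all 4 members were called, as were 90.6% of genes. Counted by intervals, Pax2, Pax3, Pax6, Pax7 and Pax9 were higher at D8 than at D0, where 57.7% of all genes were.

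In Pax2, Pax3 and Pax6 the higher level appeared between D4 and D8. As deposited, D8 exceeded D4 4.22-fold at Pax2, 3.36-fold at Pax3 and 2.70-fold at Pax6, with intervals apart, which 50.4% of all genes showed in this direction. The log2 changes at D8 over D4 were 0.99, 0.65 and 0.66 in the same order, so 0 of the 4 members compared reached the 2-fold rule in this comparison, where 1.03% of genes were higher and 0.432% lower. As deposited the 3 genes were called, with 40.9% of genes. Their D4 values were under the filter of 5.41 RPM, so they entered this comparison only through their D8 values. The D4 library has 2773333 reads, and the D4 values of the 3 genes rest on 4, 10 and 7.5 reads.

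Pax7 had 0.634 RPM at D0 (0.274 to 1.25), 1.44 RPM at D4 (0.393 to 3.69) and 2.84 RPM at D8 (2.31 to 3.46). It stood at the 41.3rd percentile at D8, against the 5.36th at D0, the largest gain in percentile among the 9 for this mark, and its log2 change was 1.07. Since neither value reached the filter of 5.41 RPM, it was not counted. Pax7 thus had higher deposited values of both H3K4me3 and H3K27me3 at D8 than at D0. Its H3K4me3 value at D0 rests on 8 reads. With the median change of the deposited values subtracted, its H3K4me3 change was -0.46, so the direction depends on the scale. Pax1 had 1.66, 4.33 and 2.87 RPM and Pax8 1.505, 1.803 and 2.01 RPM, with overlapping intervals at D8 and D0. At D4 Pax1 stood at the 47.5th percentile, against the 26.8th at D0, on 12 and 21 reads. Its log2 change at D4 over D0 was 1.22, the largest among the 9 for this mark, with overlapping intervals and both values under the filter.

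Pax5 and Pax4 had lower H3K4me3 values at D8 than at D0, whereas the median gene had more at each later stage. Pax5, the B cell and midbrain factor, had 1.90 RPM at D0 (1.22 to 2.83), 1.08 RPM at D4 (0.223 to 3.16) and 0.717 RPM at D8 (0.464 to 1.06). The D8 and D0 intervals of Pax5 did not overlap, which 7.32% of all genes showed in this direction. Pax4, the pancreatic factor, had 1.66 RPM at D0 (1.03 to 2.54), 1.803 RPM at D4 and 0.775 RPM at D8 (0.510 to 1.13), and its intervals at D8 and D0 overlapped narrowly. At D8 they stood at the 7.84th and 9.41st percentile. The lower quartile of all genes was 1.12 RPM at D8, against 1.58 RPM at D0, so low genes in general had fewer RPM in the D8 library.

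**Figure D2:**
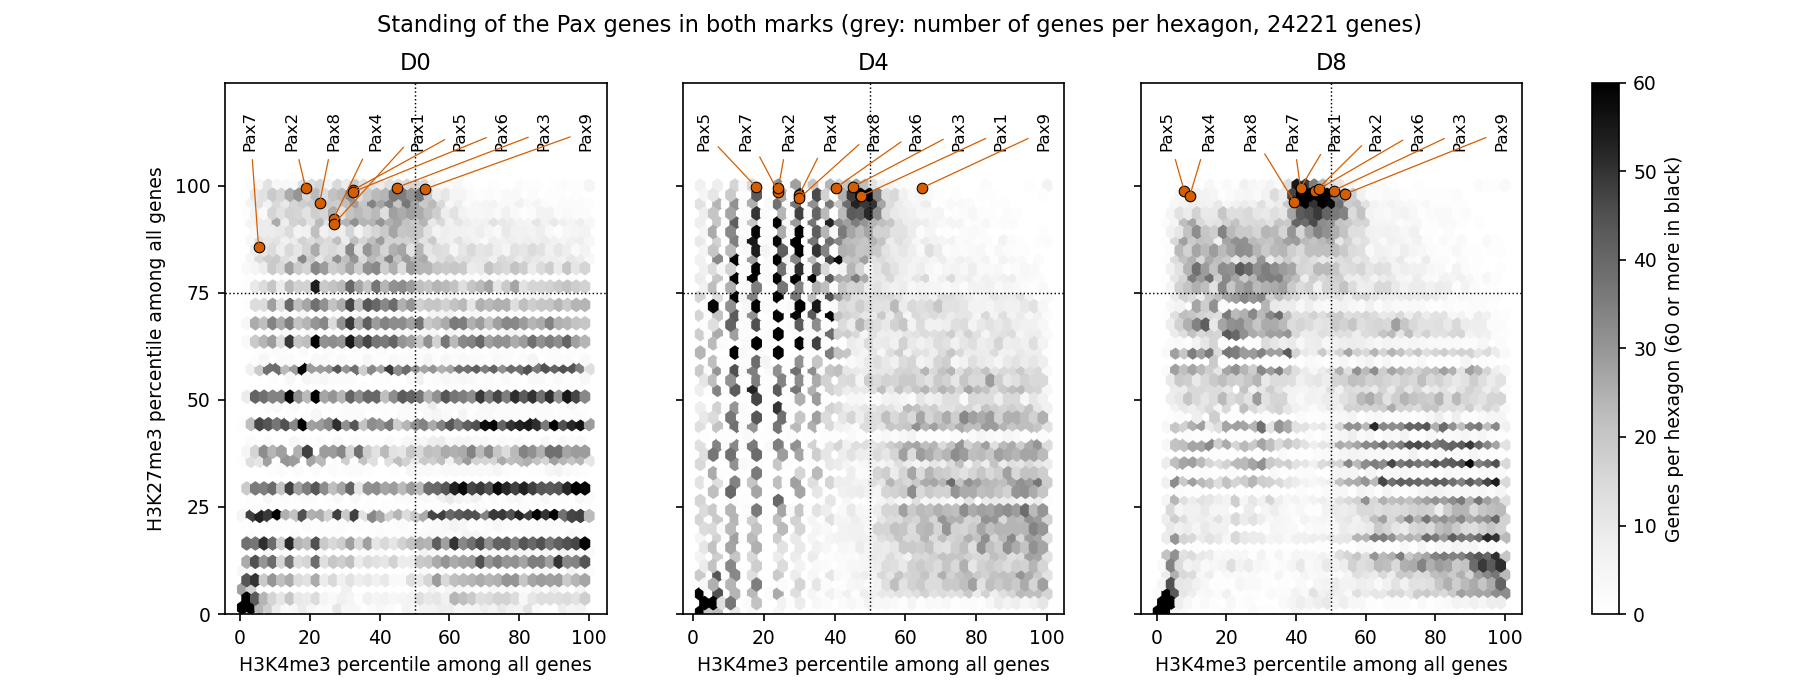
Percentile of H3K27me3 (vertical) against that of H3K4me3 (horizontal) among all genes at D0, D4 and D8. Grey hexagons count all 24221 genes, orange points are the Pax genes, and dotted lines mark the median of H3K4me3 and the 75th percentile of H3K27me3. At D8 the members other than Pax5 and Pax4 lie between the 39.5th and 53.9th percentile of H3K4me3, in the dense group of genes with high H3K27me3.

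Read together, the marks gave Pax9 at D0, Pax9 at D4, and Pax3 and Pax9 at D8 as carrying both H3K4me3, at or above the median of the stage, and H3K27me3, at or above the 75th percentile. These are 1, 1 and 2 of 9 members, where 8.97%, 6.46% and 6.05% of all genes met both. Among genes that met the H3K27me3 threshold, to which all Pax genes belong, 35.9%, 24.6% and 23.8% met both. Pax3 lay just inside at D8 with 12.1 RPM of H3K4me3, and Pax6 just outside with 7.31 RPM, where the threshold was 11.1 RPM. The call depends on that threshold: with thresholds pooled over the stages, Pax2, Pax3, Pax6 and Pax9 met both at D8 and no member did at D0. ChIP-seq of bulk cells does not tell 2 marks on the same nucleosome from marks in different cells.

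H3K4me1 was higher after 4 days at Pax2, Pax3 and Pax6. The same 3 genes had higher H3K4me3 at D8 than at D4 with intervals apart, as did 50.4% of all genes. The share of all genes with both differences was not computed, so no order of the 2 marks is drawn from this. Pax2 had 1.63 RPM at D0 (1.16 to 2.22), 2.97 RPM at D4 (2.42 to 3.61) and 3.49 RPM at D8 (2.85 to 4.23). Pax3 had 2.04 RPM at D0 (1.51 to 2.69), 3.70 RPM at D4 (3.08 to 4.41) and 3.59 RPM at D8 (2.95 to 4.34). Pax6 had 1.65 RPM at D0 (1.18 to 2.24), 2.92 RPM at D4 (2.37 to 3.55) and 3.31 RPM at D8 (2.69 to 4.03). At D4 each of the 3 was above D0 with intervals apart, as were 14.1% of all genes. They gained 33.7, 34.5 and 31.9 points of percentile from D0 to D4, and 5.05% of all genes gained at least 30 points, a size chosen after these values were seen. Their log2 changes at D4 over D0, 0.52, 0.47 and 0.50, were under the 2-fold rule, by which 0 of the 4 members compared were called and 0.109% of genes were higher and 0.0801% lower.

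Pax9 followed for H3K4me1 at D8. It had 2.20 RPM at D0 (1.65 to 2.87), 2.64 RPM at D4 (2.13 to 3.25) and 4.00 RPM at D8 (3.31 to 4.78), and its D8 interval lay above those of both earlier stages. Between D8 and D0 the intervals were apart and higher at 4 members, Pax2, Pax3, Pax6 and Pax9, and in 37.9% of all genes. The other 5 members stayed under the median gene in all 3 libraries, and between 1.28 and 2.15 RPM at D8. Pax4 and Pax5 were the lowest there, with 1.28 and 1.38 RPM. The 2-fold rule called 0 of 4 members compared at D8 over D0, where 0.1% of genes were higher and 0.16% lower. At D8 over D4, where the intervals of Pax9 were apart with 15.8% of genes, 0 of 4 members compared and 0% of genes were called.

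**Figure D3:**
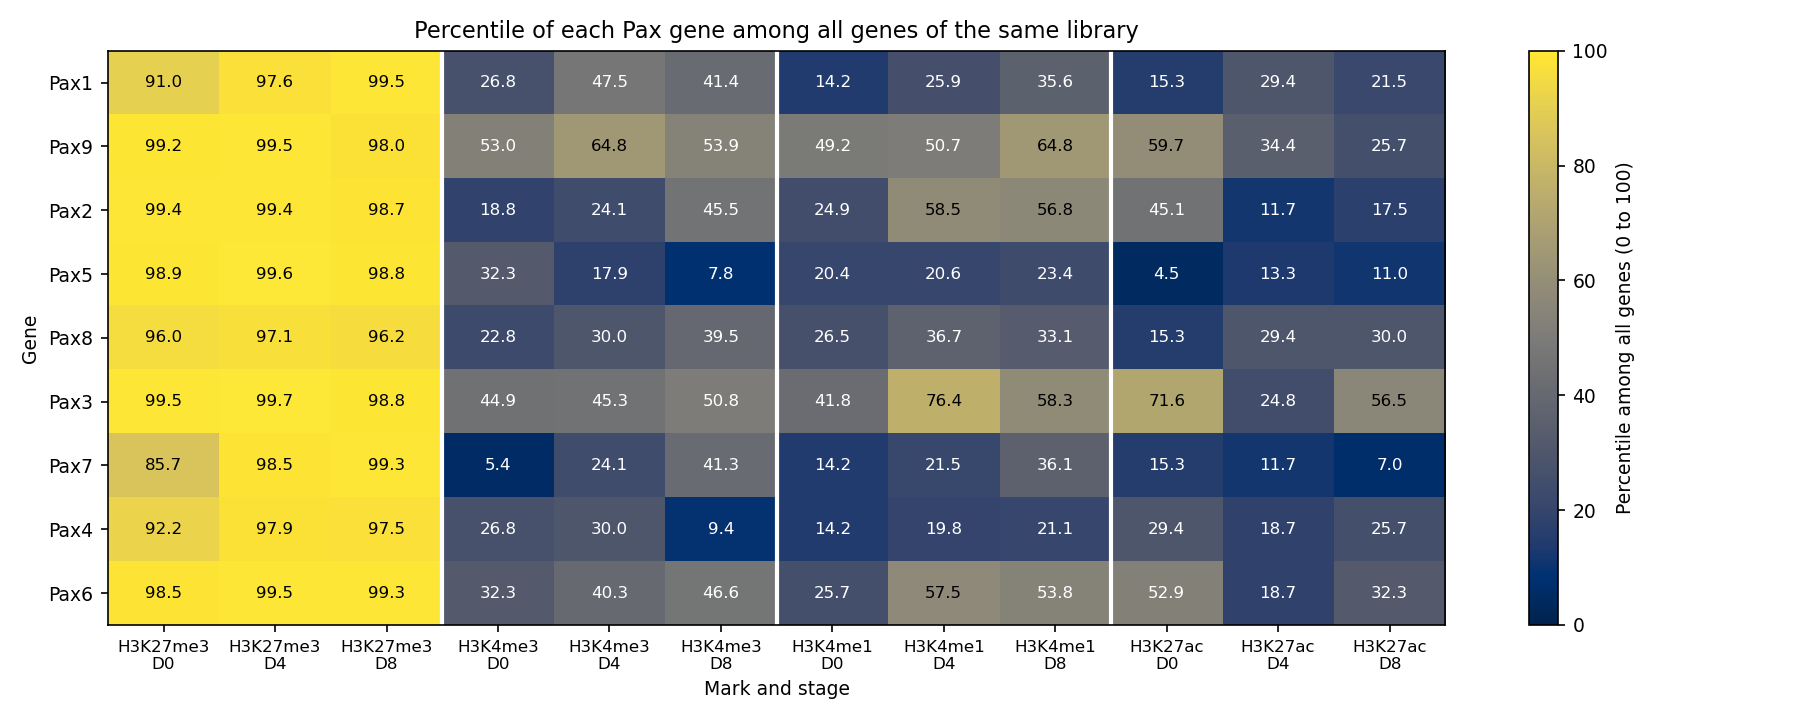
Percentile of each Pax gene (rows, paralogues next to each other) among all genes of the same library (columns, by mark and stage), from 0 (dark blue) to 100 (yellow). The H3K27me3 columns lie between 85.7 and 99.7 throughout, the H3K4me3 and H3K4me1 columns mostly below 60, and the H3K27ac columns at D4 between 11.7 and 34.4.

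H3K27ac lay under the level of the median gene at most Pax genes at D4 and D8, and at 5 of 9 at D0. At D4, in the deepest library of this mark with 16939269 reads, the 9 members lay between 1.06 RPM at Pax2 and 1.71 RPM at Pax9, all below the median of 2.13 RPM. At D8 they lay between 0.890 RPM at Pax7 and 2.80 RPM at Pax3, with 8 of 9 below the median of 2.42 RPM. Pax3, the exception, had 3.16 RPM at D0 (1.03 to 7.37), 1.48 RPM at D4 (0.955 to 2.18) and 2.80 RPM at D8 (1.75 to 4.24). Pax9, which had the most H3K4me3, had 2.53 RPM at D0 (0.689 to 6.47), 1.71 RPM at D4 (1.15 to 2.46) and 1.65 RPM at D8 (0.880 to 2.83). In the D0 library a single read is worth 0.632 RPM and the members rest on 0 to 5 reads. Pax3 (71.6th percentile), Pax9 (59.7th) and Pax6 (52.9th) were above the median gene there. Pax5 was at 0 reads there, with a 95% Poisson interval up to 2.33 RPM, and 3 reads would be 1.90 RPM. No member had intervals apart between stages. Of all genes, 0.739% were higher and 1.56% lower by intervals at D4 over D0, 6.28% and 0.504% at D8 over D0, and 17.7% and 0.31% at D8 over D4. By the 2-fold rule 0 members were called in any comparison, of 3 that passed the filter at D4 over D0, 3 at D8 over D0 and 1 at D8 over D4. The 3 compared at D4 over D0 were Pax3, Pax6 and Pax9. They passed the filter of 2.18 RPM only through D0 values on 5, 3.5 and 4 reads. Pax6 and Pax9 did so at D8 over D0 as well. Of all genes compared, 7.53% were higher and 6.83% lower at D4 over D0, 6.93% and 6.26% at D8 over D0, and 0.537% and 0.479% at D8 over D4.

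**Figure D4:**
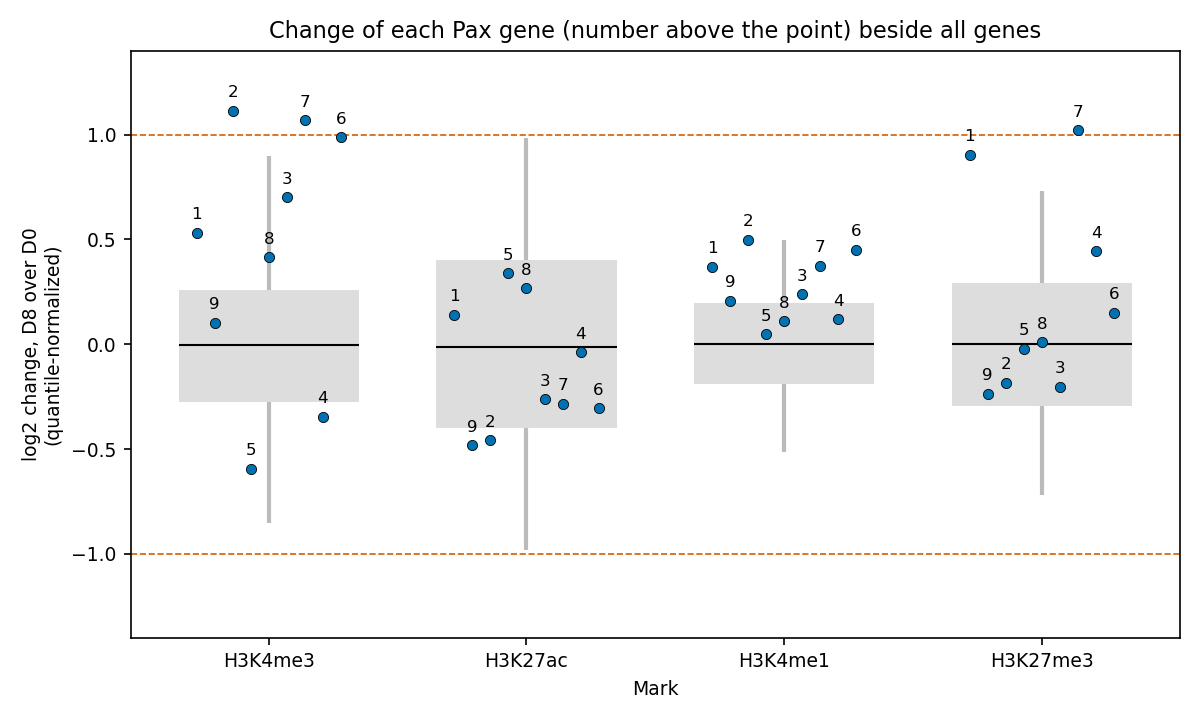
Log2 change at D8 over D0 after quantile normalization for each Pax gene (points, with the number of the gene) and each mark. Grey boxes hold the central 50% of all genes, grey lines reach to the 5th and 95th percentile, black lines are medians, and dashed lines mark a 2-fold difference. In H3K4me3 the points run from -0.59 at Pax5 to 1.11 at Pax2, and in H3K4me1 from 0.05 at Pax5 to 0.50 at Pax2, where Pax4 and Pax5 lie just under 0 as deposited.

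Over the family, the median log2 change at D8 over D0 was 0.53 for H3K4me3, 0.24 for H3K4me1, 0.01 for H3K27me3 and -0.26 for H3K27ac. The medians over all genes were -0.01, 0, 0 and -0.01 in the same order. As deposited, the family's H3K4me3 had a median log2 change of 1.04, equal to the 1.04 of all genes. The values at D4 over D0 share the D0 libraries with these and were 0.14, 0.17, 0.22 and -0.22. For H3K27ac the deposited values gave medians of 0.16 at D8 over D0 and 0.02 at D4 over D0, so its direction depends on the scale.

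By this measure of percentiles, close paralogues were not more alike in their marks than other members. Over the 12 libraries, the root mean square difference in percentile was 32.1 between Pax3 and Pax7, 22.2 between Pax1 and Pax9, 20.0 between Pax4 and Pax6, and 22.2, 14.5 and 14.1 for the 3 pairs among Pax2, Pax5 and Pax8. The median of these 6 pairs was 21.1 and that of the other 30 pairs 16.6. The most alike members were Pax1 and Pax8 (7.69), Pax2 and Pax6 (8.10) and Pax4 and Pax5 (9.76). Pairs share genes and libraries, so these are descriptions. Each library weighs the same, including H3K27ac at D0, where members rest on 0 to 5 reads. There they span the 4.45th to the 71.6th percentile. At D4 their H3K4me3 rests on 3 to 39 reads. Counting error thus enters these differences, and its part was not tested. Outside the family, the gene most like Pax7 was Chat (3.77), followed by Slc18a3 (4.62), which lies at the same locus and also serves acetylcholine signalling, and Ppp2r2c (4.69). The nearest gene was Pcdh8, a protocadherin, for Pax2 (4.46), Gal, the neuropeptide galanin, for Pax8 (5.16), Gm2694 for Pax6 (5.37), Olfr1412, an odorant receptor, for Pax4 (5.81), Lrrc38 for Pax1 (5.92), Fgf5, a growth factor, for Pax9 (6.44), 9230102O04Rik for Pax3 (7.37) and Tusc5 for Pax5 (7.50).

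Several transcripts next to or inside the Pax genes also ranked high in H3K27me3, and others did not. Pax6os1, an antisense RNA that starts 1434 bases from a Pax6 start (chromosome 2, 105536080 to 105670330), had 9.39, 7.16 and 8.37 RPM at D0, D4 and D8. Paupar, a noncoding RNA upstream of Pax6, had 13.5, 6.89 and 7.94 RPM, more than any Pax gene at D0. AI646519, which starts 2201 bases from the Pax1 start (chromosome 2, 147361541 to 147362793), had 6.85, 5.69 and 8.46 RPM, so the lower D0 value of Pax1 was not repeated there. Elp4, an Elongator subunit gene whose end overlaps that of Pax6, had 0.978, 1.57 and 2.01 RPM of H3K27me3 and 18.1, 28.5 and 48.8 RPM of H3K4me3. Inside Pax5, 5730488B01Rik near its 5′ end had 5.28, 6.45 and 8.55 RPM of H3K27me3 and Mir5120 in its middle 2.54, 2.11 and 3.05. Inside Pax2, Mir6405 had 4.70, 4.88 and 4.45 RPM and 1700039E22Rik 4.89, 4.99 and 7.76. Pax6os1 and AI646519 were named by a rule on the distance of starts, and the other neighbours were picked after their values were seen. Reads of overlapping regions may be counted for both genes, and the region counted is not given in the sources used here.

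Zic and Dlx genes, 2 other families of neural developmental regulators, had similar H3K27me3. Its median percentile at D8 was 98.8 for the 9 Pax genes, 98.9 for the 5 Zic genes and 98.5 for the 6 Dlx genes. H3K27ac at D8 stood at a median percentile of 25.7 for Pax and 17.7 for Dlx, but 82.6 for Zic, whose lowest member was at 62.4. The highest Pax gene, Pax3, was at 56.5. At D4 the medians were 18.7 for Pax, 19.6 for Dlx and 36.7 for Zic, and at D0, in the library with the fewest reads, 29.4 for Pax, 29.4 for Dlx and 15.3 for Zic. With 1 library per stage the difference between the families has no test.

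Genes described as targets of Pax factors ranked high in H3K27me3 as well, with a median percentile of 85.6, 84.6 and 89.0 at D0, D4 and D8. Of 32 such genes, 22, 25 and 23 reached the 75th percentile of H3K27me3 at D0, D4 and D8, as did 25%, 26.2% and 25.5% of all genes. For H3K4me3 at D8 over D0, 4 were higher and 1 lower of 17 compared, where 5.88% of all compared genes were higher and 1.67% lower, and the median log2 change of the 32 was 0.02. Those higher were Gdnf, a kidney and neuronal growth factor that Pax2 regulates (2.61, 11.8 and 20.8 RPM, log2 change 1.44), Fgfr4, a receptor downstream of Pax3 (0.713, 4.33 and 5.51 RPM, 1.41), En2, a midbrain and hindbrain factor (1.03, 4.33 and 6.89 RPM, 1.38), and Eomes, a factor of intermediate progenitors downstream of Pax6 (1.90, 6.85 and 11.02 RPM, 1.37). All 4 lay under the filter of 5.41 RPM at D0 and entered the comparison only through their D8 values. The 4 of 17 is therefore not read as a result about the targets. As deposited, the log2 changes of these 4 were 2.45, 1.69, 1.75 and 1.90 in the same order. The median of all compared genes on that scale was 1.51, and 90.6% of them were called, so the 4 calls depend on the scale. The gene counted as lower was Sfrp2, a Wnt antagonist, named after its value was seen. No target was called for H3K4me1 or H3K27me3 at D8 over D0, of 20 and 31 compared. For H3K27ac 1 of 15 compared was lower, where 6.26% of all compared genes were. It was Tg, the thyroglobulin gene (5.05, 1.83 and 1.02 RPM, log2 change -1.75), on 8 reads at D0. Tg passed the filter of 2.18 RPM only through that D0 value.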

How the data were processed

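The deposited table gives 1 value per gene and library. The submitters' processing notes name the build mm10 and, without saying what each did, Bowtie 1.1.0, SAMtools 0.1.19, CASAVA 1.8.4 and bedtools. Which region was counted for a gene, and how duplicates were treated, is not given in the sources used here. Deposited values were read as RPM (reads-per-million), a unit inferred from the values, of which 93.5% to 94.7% in a column are whole multiples of 1 step within 0.02 of a read. That share was too low for count models, and with 1 library per mark and stage there is nothing to test. A further 8 of the 20 value columns carry names found in no label and were left out. The ciNSLC and pri-NPC stages and the 5 inputs are not analysed here.

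Symbols turned into dates (27) and genes at 0 in the 12 libraries (205) were left out of 24453 rows. Reads were implied by the step, and their 95% Poisson intervals cover counting error only, since PCR reads are not independent molecules. Changes are log2((a + c)/(b + c)) after quantile normalization within a mark, with c the 25th percentile of positive values: H3K4me3 1.44 RPM, H3K27ac 1.53 RPM, H3K4me1 1.63 RPM, H3K27me3 1.30 RPM. This pseudocount makes the change of a low gene look smaller. Genes entered a comparison where the larger deposited value reached the median of the mark over the stages (5.41, 2.18, 2.49 and 1.76 RPM in the same order) and called from 2-fold. Percentiles count ties by their mean rank. The comparison of intervals and the 30-point size were chosen after values were seen. Likeness is the root mean square difference in percentile over 12 libraries, with the nearest 3 genes kept per member. Of the list of Pax targets, up to 4 called genes with the largest change per mark were named, and a list of partner genes is not reported here.

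Genome positions, promoters and names come from RefSeq (GRCm38.p6, of which mm10 is the UCSC name). It lists 23175 of the symbols (95.7%). The members, lists and rules were chosen with earlier results of these data known. Scripts (Python 3.11.15, numpy 2.4.6, pandas 2.3.3, scipy 1.17.1, matplotlib 3.10.9) were tested on simulated data.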

Additional observations from a re-analysis of the deposited data

How the results depend on the processing

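Of 81 recomputed counts of Pax genes, 60 stayed within 1.5 times the reported count and 21 moved, all by small numbers of genes. For H3K4me3 at D8 over D0 the count of 1 became 4 with values as deposited (Pax2, Pax3, Pax6 and Pax9, on a scale that called 90.6% of all compared genes), 0 with the median change subtracted, 2 with the pseudocount divided by 4, 0 with it multiplied by 4, 2 with no filter (Pax2 and Pax7) and 0 with the filter at the 75th percentile, where no member was compared. The change of Pax2 reversed to -0.077 with the median change subtracted. For H3K4me3 at D4 over D0 the count of 0 became 1 as deposited (Pax9) and 1 with no filter (Pax1), and at D8 over D4 it became 3 as deposited and 1 with the pseudocount divided by 4. For H3K27me3 at D8 over D0 the count of 1 (Pax7) became 0 as deposited, 0 with the median change subtracted, 0 with the pseudocount multiplied by 4 and 2 with it divided by 4 (Pax1 and Pax7). A pseudocount divided by 4 also gave 1 call for H3K27me3 (Pax7) and 1 for H3K27ac (Pax3, lower) at D4 over D0. Members with both marks became 0 at D0 and 4 at D8 with pooled thresholds, and 0 at D0, 0 at D4 and 0 at D8 with the 75th percentile required of both. The cause was not tested, except that by construction a larger pseudocount shrinks changes and a stricter filter or threshold keeps fewer genes. Of 432 recomputed log2 changes of single members, 391 moved by less than counting error, 40 by more, and 1 reversed. A reversal was counted only where the change was called in the main setting, so the 391 and 40 include changes of sign. With the median change subtracted, H3K4me3 at D8 over D0 turned from 1.07 to -0.46 at Pax7 and from 0.99 to -0.12 at Pax6. It also turned from 0.53 to -1.04 at Pax1 and from 0.42 to -1.28 at Pax8, and stayed above 0 at Pax3 (0.20) and Pax9 (0.12). No paired analysis was possible because each group holds 1 library. Depth limits H3K27ac at D0 (0.632 RPM per read) and H3K4me3 at D4 (0.361 RPM per read).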
